A study of Homo sapiens with 6 samples.

Results

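The IGF binding proteins are secreted proteins that hold insulin-like growth factors 1 and 2 (IGF1 and IGF2) outside the cell. The 6 genes described here, IGFBP2, IGFBP3, IGFBP4, IGFBP5, IGFBP6 and IGFBP7, were selected by symbol from the 57820 gene rows of the deposited table, with earlier results of the same libraries in view. All 6 were among the 14763 genes that passed the filter on low values. A binding protein can keep a growth factor from its receptor IGF1R, can lengthen its life in the fluid around the cell, and can release it when a protease cuts the binding protein. IGFBP3 and IGFBP5 also join the acid-labile subunit IGFALS in blood to form a large carrier complex. IGFBP6 prefers IGF2, and IGFBP7 binds the growth factors weakly and also binds insulin. In breast epithelium the family is best known for setting how much IGF reaches IGF1R, and IGFBP5 is known for its high level in the involuting mammary gland of rodents.

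Messenger RNA was sequenced from hTert-HME1, human mammary epithelial cells made immortal by the catalytic subunit of telomerase. All cells were grown in Mammary Epithelial Growth Medium and had been transfected with an siRNA and left to recover. Cells given the BRCA2-2 siRNA, directed at a gene of homologous recombination repair, were grown without epidermal growth factor (EGF) to passage 6 (replicates A and B) or with EGF to passage 4 (1 library). Cells given the control-1 siRNA were grown with EGF to passage 6 (replicates A and B) or passage 4 (1 library). These 6 libraries come from 1 cell line and 1 siRNA per arm, and control siRNA cells grown without EGF, which the series design also lists, are not analysed here. At passage 6 the siRNA and the medium therefore differ together and cannot be told apart, and between the passage 4 and passage 6 BRCA2 siRNA libraries the medium and the passage differ together. The labels call A and B biological replicates but do not say that they were separate cultures, so errors and p-values below cover only how far these libraries spread, which may be technical.

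Values are the authors' normalised log2 values, in which a difference of 1 is a doubling. The sequencing depth is unknown, and the way the values were transformed is not given in the sources used here. A transformation that shrinks low values would understate differences of a low gene such as IGFBP5. Genes were compared in 1 limma fit over all 6 libraries with 2 residual degrees of freedom, and a gene was called at a Benjamini-Hochberg adjusted p below 0.05. Across tested genes, the SD of replicate A less replicate B was 0.308 in the libraries without EGF and 0.119 in the passage 6 controls. The spread, and with it the number of calls, depends on the closeness of the controls. In the +EGF library labelled BRCA2 siRNA, BRCA2 itself stood at 10.88, against 10.19 in the passage 4 library labelled control. The order of these 2 libraries goes against their labels, although 10.88 is below both passage 6 controls. BRCA2 in the passage 4 library labelled control was the lowest of the 6 libraries, and the passage 6 controls were higher by 1.05 (limma adjusted p = 0.0235). The pair without EGF had BRCA2 values of 11.15 and 10.89, against 11.25 and 11.24 in the passage 6 controls (difference -0.23 ± 0.11, limma adjusted p = 0.23). By all tested genes, the +EGF library labelled BRCA2 siRNA lay nearer to passage 6 controls A and B (SD of the differences 0.29 and 0.321) than to the passage 4 library labelled control (0.397). The basal keratin KRT5 ran from 16.81 to 17.86 and the basal factor TP63 from 12.41 to 13.71. The epithelial marker EPCAM ran from -0.18 to 0.09 and the luminal keratin KRT19 from 0.91 to 1.12. The simple keratins KRT8 and KRT18 were well above these, from 10.66 to 11.24 and from 10.27 to 11.2, so KRT19 does not stand for all such keratins.

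The stretches of DNA just ahead of 3 members are shown because IGFBP3 and IGFBP5 held the largest differences and IGFBP4 lay on the other side of 0. Each is the 250 bases before the gene's start in the RefSeq table of human promoters, build GRCh38.p14, read 5′ to 3′ on the gene's own strand. Capitals mark the letters of a GC box (GGGCGG) or of TATANA, on either strand. The IGFBP3 window is chr7:45921273-45921522 on the minus strand, the IGFBP4 window chr17:40443200-40443449 on the plus strand, and the IGFBP5 window chr2:216695550-216695799 on the minus strand.
IGFBP3: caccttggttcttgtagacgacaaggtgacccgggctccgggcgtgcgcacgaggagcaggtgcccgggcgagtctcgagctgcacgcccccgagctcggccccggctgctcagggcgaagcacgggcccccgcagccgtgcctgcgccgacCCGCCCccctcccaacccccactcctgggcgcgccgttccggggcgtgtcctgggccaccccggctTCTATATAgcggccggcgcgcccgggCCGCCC
IGFBP4: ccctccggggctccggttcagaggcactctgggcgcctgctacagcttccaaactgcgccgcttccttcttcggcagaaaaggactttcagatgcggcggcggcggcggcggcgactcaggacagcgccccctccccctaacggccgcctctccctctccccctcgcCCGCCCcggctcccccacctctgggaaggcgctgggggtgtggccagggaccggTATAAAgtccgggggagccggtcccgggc
IGFBP5: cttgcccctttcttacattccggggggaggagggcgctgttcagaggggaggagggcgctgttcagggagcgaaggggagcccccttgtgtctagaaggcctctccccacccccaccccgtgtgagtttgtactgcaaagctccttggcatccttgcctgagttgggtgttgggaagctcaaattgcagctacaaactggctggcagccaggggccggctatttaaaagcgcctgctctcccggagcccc
The windows differed in make-up. The IGFBP3 window was 76% G and C, with GC boxes 98 and 6 bases before the start and 2 overlapping TATANA matches at 32 and 30 bases. The IGFBP4 window was 71.6% G and C, with a GC box at 83 bases and TATANA at 29 bases. The IGFBP5 window was 61.2% G and C, and its run tatttaaaa near the start does not meet the strict pattern TATANA. That window held none of the 5 motifs searched. These were, on both strands, the GC box, TATANA, the AP-1 motif TGANTCA, the FOXO motif TGTTTAC and the E-box CACGTG, which occur in 42.6%, 17.7%, 6.57%, 2.98% and 6.34% of the 35116 promoter windows of that length. IGFBP6 held a FOXO match 186 bases and a GC box 17 bases before its start, and of the 3 starts listed for IGFBP2, 1 had a GC box at 86 bases and 1 at 49. The promoter table covered 5 of the 6 members, all but IGFBP7. None of the 5 covered held the AP-1 motif or the E-box in these windows. A match is only a run of letters, and its absence says nothing of the factor.

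Without EGF and with BRCA2 siRNA, the family took on another make-up. IGFBP3, the most abundant carrier of IGF in blood, was 15.9-fold higher than in the passage 6 controls, IGFBP5 was 7.19-fold higher and IGFBP2 was 2.97-fold higher. IGFBP7 was 1.34-fold higher, IGFBP4 was 0.747-fold, and IGFBP6 did not separate the groups. These differences were known when the genes were chosen, so they are given as a description with standard errors and without a p-value. Nothing is read from the calls counted further below.

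**Figure D1:**
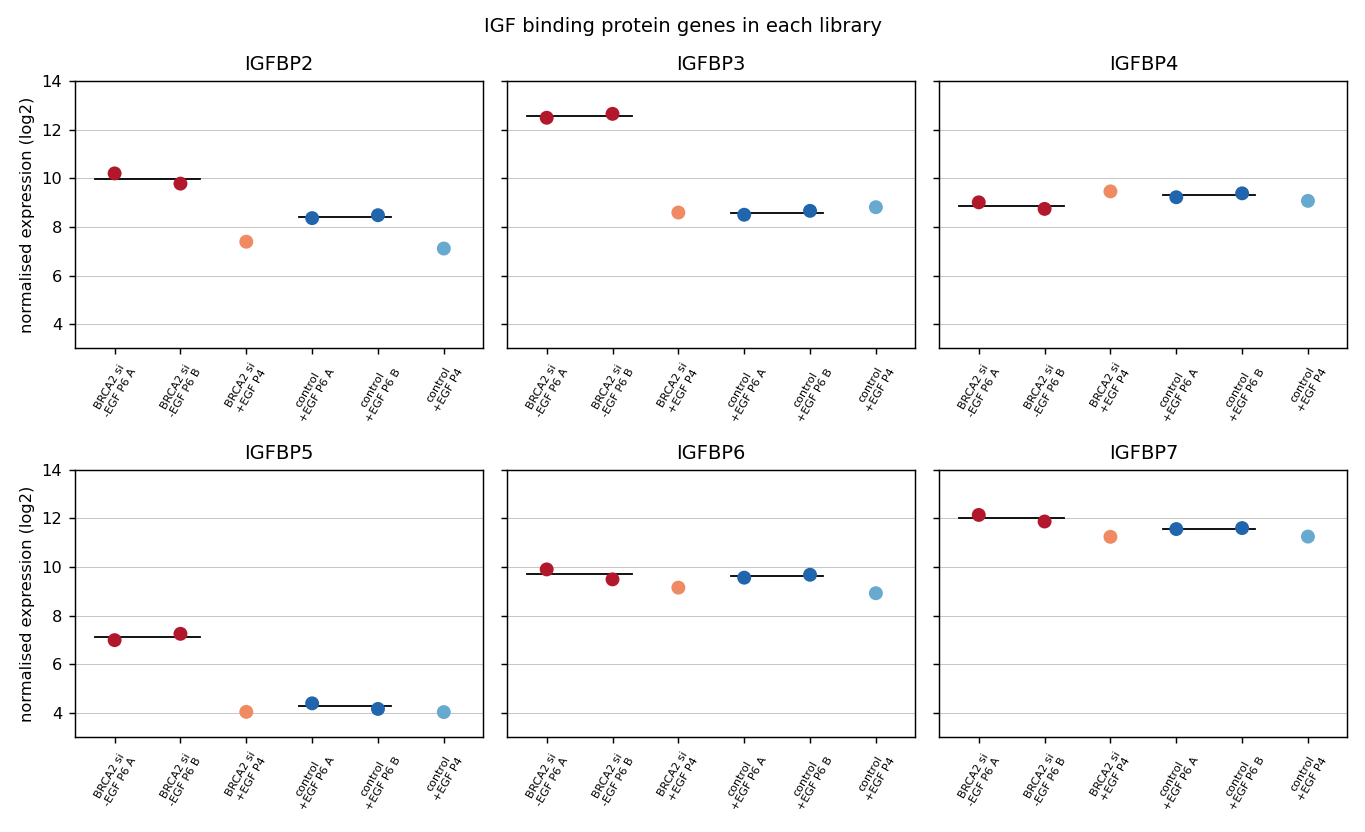
Normalised log2 expression (y axis) of the 6 IGF binding protein genes in each of the 6 libraries (x axis), with 1 panel per gene. Points are single libraries and black lines the means of the passage 6 pairs. IGFBP3 stands at 12.49 and 12.65 in the pair without EGF and between 8.50 and 8.81 in the 4 other libraries.

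IGFBP3 had log2 values of 12.49 and 12.65 in the BRCA2 siRNA libraries without EGF and 8.59 in the +EGF library labelled BRCA2 siRNA. Its values were 8.50 and 8.66 in the passage 6 controls and 8.81 in the passage 4 library labelled control. The 2 libraries without EGF stood far above the other 4, which lay within a narrow band. The passage 6 means were 12.57 ± 0.12 without EGF and 8.58 ± 0.11 in controls (SD, n = 2 each), a difference of 3.99 ± 0.10 (standard error of the limma fit). That was the highest of all 14763 tested genes, rank 1, and the same rank was held against the +EGF library labelled BRCA2 siRNA, at 3.98 ± 0.12. IGFBP1, its neighbour on chromosome 7 and the family member best known from liver, ran from -0.10 to 0.10 over the 6 libraries, too low to be tested.

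IGFBP5, a binding protein that attaches to extracellular matrix, had log2 values of 6.99 and 7.25 in the libraries without EGF and 4.04 in the +EGF library labelled BRCA2 siRNA. It stood at 4.39 and 4.16 in the passage 6 controls and at 4.03 in the passage 4 library labelled control. As for IGFBP3, the pair without EGF lay apart from the other 4 libraries, though at a much lower level. The means were 7.12 ± 0.18 without EGF and 4.27 ± 0.17 in passage 6 controls (SD, n = 2 each). The difference of 2.85 ± 0.15 was the seventh highest of the tested genes, and against the +EGF library labelled BRCA2 siRNA it was 3.08 ± 0.19. With 8 added to each linear value before the log, which damps low genes, the passage 6 difference was 2.43.

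IGFBP2, which carries an integrin-binding motif beside its IGF-binding parts, had log2 values of 10.20 and 9.78 in the libraries without EGF. The +EGF library labelled BRCA2 siRNA had 7.39, the passage 6 controls 8.36 and 8.48, and the passage 4 library labelled control 7.11. IGFBP2 thus fell into 3 levels, with the passage 4 libraries lowest, the passage 6 controls between and the libraries without EGF highest. The means at passage 6 were 9.99 ± 0.30 without EGF and 8.42 ± 0.08 in controls (SD, n = 2 each), a difference of 1.57 ± 0.16 at rank 88. Against the +EGF library labelled BRCA2 siRNA, which also differs in passage, the difference was 2.60 ± 0.20, or 6.05-fold, at rank 13.

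IGFBP7, which lacks part of the IGF-binding domain of the other members, had the highest level per kilobase of annotated exon of the family in every library. Its log2 values were 12.14 and 11.87 in the libraries without EGF and 11.24 in the +EGF library labelled BRCA2 siRNA, against 11.56 and 11.60 in the passage 6 controls and 11.25 in the passage 4 library labelled control. The pair without EGF was above every other library, by a small margin, with means of 12.00 ± 0.19 without EGF and 11.58 ± 0.027 in passage 6 controls (SD, n = 2 each). The difference was 0.42 ± 0.11 at passage 6 and 0.77 ± 0.14 against the +EGF library labelled BRCA2 siRNA.

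IGFBP4, a binding protein that the protease PAPPA cuts, was the one member lower without EGF. It had log2 values of 9.01 and 8.74 in the libraries without EGF and 9.46 in the +EGF library labelled BRCA2 siRNA. The passage 6 controls had 9.22 and 9.38 and the passage 4 library labelled control 9.07. The pair without EGF lay below all other libraries, but its higher replicate came within 0.1 of the passage 4 library labelled control. The means were 8.88 ± 0.19 without EGF and 9.30 ± 0.11 in passage 6 controls (SD, n = 2 each), a difference of -0.42 ± 0.13, and against the +EGF library labelled BRCA2 siRNA the difference was -0.58 ± 0.15.

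IGFBP6 had log2 values of 9.90 and 9.49 in the libraries without EGF and 9.15 in the +EGF library labelled BRCA2 siRNA. It had 9.56 and 9.68 in the passage 6 controls and 8.92 in the passage 4 library labelled control. The passage 6 groups overlapped, with means of 9.69 ± 0.30 without EGF and 9.62 ± 0.085 in controls (SD, n = 2 each) and a difference of 0.07 ± 0.16. Its sign turned to -0.14 without replicate A of the pair without EGF. For IGFBP6 both passage 4 libraries lay below all 4 passage 6 libraries, as they did for IGFBP2 and IGFBP7. The share of all tested genes with that order was not counted.

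In the passage 6 comparison the values of the 2 groups did not overlap for 5 of the 6 members, 4 higher and 1 lower, beside 64.9% of all tested genes (29.2% higher and 35.7% lower). The fit called 3 of the 6 members, IGFBP2, IGFBP3 and IGFBP5, all higher, beside 6.44% of tested genes in either direction (3.56% higher and 2.88% lower). Against the +EGF library labelled BRCA2 siRNA it called 4 members, IGFBP7 being the other, beside 16.3% in either direction (7.41% higher and 8.89% lower). That count was 3 without control A, without control B or with the controls averaged, where IGFBP7 was not called, 2 with passages pooled and 0 with no filter. The genes were chosen on these contrasts, so nothing is read from these counts. Without either passage 6 control replicate the passage 6 count was 2, IGFBP3 and IGFBP5, and the number called among all genes was 42 without control A and 45 without control B, in place of 950.

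**Figure D2:**
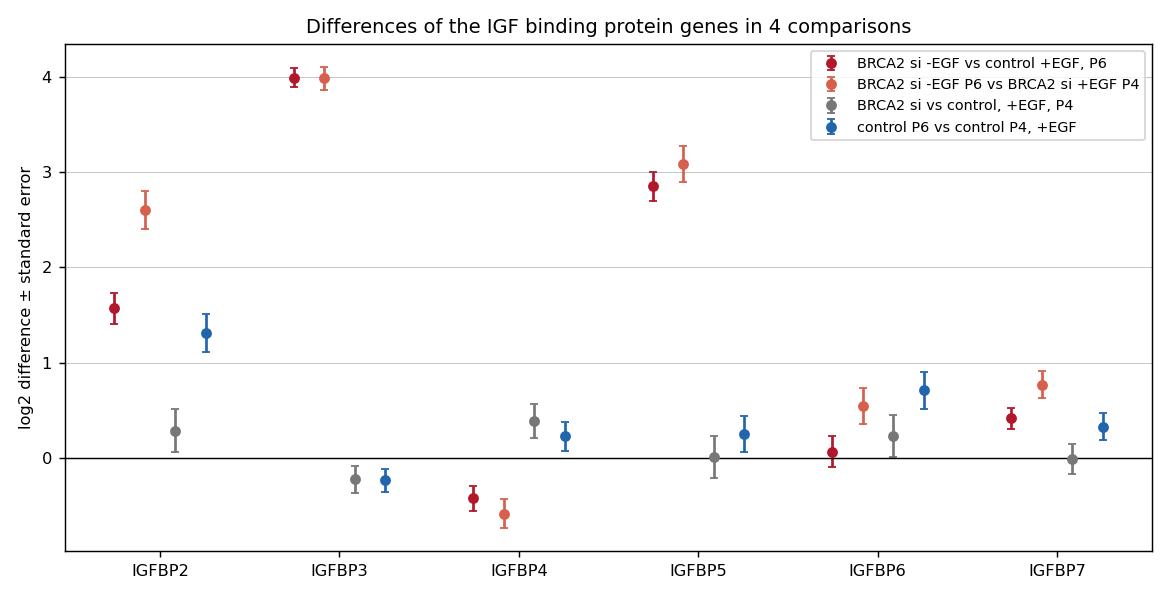
Log2 differences (y axis) of the 6 members (x axis) in 4 comparisons, with bars for the standard error of the limma fit. IGFBP3 and IGFBP5 lie near 4 and 3 in both comparisons that use the libraries without EGF and near 0 in the other 2, and IGFBP2 is above 1 in the comparison of control passages as well.

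Between the +EGF library labelled BRCA2 siRNA and the passage 4 library labelled control, both grown with EGF, the members lay close together. IGFBP3 differed by -0.22 ± 0.14 (limma adjusted p = 0.40), IGFBP5 by 0.01 ± 0.22 (0.979) and IGFBP2 by 0.29 ± 0.23 (0.486). IGFBP4 differed by 0.39 ± 0.18 (0.261), IGFBP6 by 0.23 ± 0.22 (0.565) and IGFBP7 by -0.01 ± 0.16 (0.97). The fit called 0 of the 6 members and 0 of all tested genes (0%), while 3436 genes had an unadjusted p below 0.05. Each group is 1 library here and takes its spread from the passage 6 pairs. Set against all 3 controls pooled, IGFBP2 in that library differed by -0.59 and IGFBP6 by -0.24, so their direction turns with the choice of control. Scaling the libraries to the same sum shifted the median of all genes in this comparison to 0.093, against -0.038 as deposited, and would raise each of these differences by the same amount. The passage 6 difference less the passage 4 difference was 4.21 for IGFBP3, 2.83 for IGFBP5, 1.28 for IGFBP2, 0.43 for IGFBP7, -0.16 for IGFBP6 and -0.81 for IGFBP4, again as a description.

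Between the control passages, both grown with EGF, IGFBP2 rose: it was 2.48-fold higher at passage 6 than at passage 4, a difference of 1.31 ± 0.20 (limma adjusted p = 0.0255), and both passage 6 controls were above the passage 4 library labelled control. This was 1 of 6 members called, beside 20.1% of all tested genes in either direction (7.71% higher and 12.4% lower), so the share of members is near that of other genes. The call was lost without control A (adjusted p = 0.165), without control B (0.206), with the 2 averaged (0.186) and with no filter on low values (0.0806), whereas the difference itself stayed between 1.18 and 1.39 over 13 alternatives. BRCA2, as given above, ordered the 2 passage 4 libraries against their labels, and a direction drawn from either rests on its label. Set against the +EGF library labelled BRCA2 siRNA, at 7.39, the passage 6 controls were also higher in IGFBP2, at 8.36 and 8.48. IGFBP6 was higher by 0.71 ± 0.19, or 1.63-fold, which missed the threshold (0.0646), and it passed with the replicate letters as a block (0.78, adjusted p = 0.0371) but not with the letters crossed (0.57, adjusted p = 0.0508). IGFBP7 differed by 0.33 ± 0.14 (0.143), IGFBP5 by 0.25 ± 0.19 (0.373), IGFBP4 by 0.23 ± 0.15 (0.304) and IGFBP3 by -0.23 ± 0.12 (0.227). The comparisons are not independent: each of the 4 groups serves in 2 of them. Passage 4 is 1 library in each arm, so a passage difference and a difference of that culture cannot be told apart.

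Levels of different members can be set side by side only roughly, after division by a length. Lengths were the summed annotated exons of each gene in GENCODE release 29, and ran from 1346 bases for IGFBP6 to 6442 for IGFBP5. Such a sum can exceed the transcript made in these cells and would then understate that member. Which transcripts were made was not tested, so the order, shares and sums below depend on these lengths. A single member's difference between libraries does not. On this log2 scale per kilobase, the passage 6 controls ran in the order IGFBP7 (10.61 and 10.65), IGFBP6 (9.13 and 9.25), IGFBP4 (8.08 and 8.24), IGFBP3 (6.31 and 6.47), IGFBP2 (6.11 and 6.22) and IGFBP5 (1.70 and 1.47). Both passage 4 libraries kept that order, and in the passage 6 controls IGFBP3 and IGFBP2 were the closest neighbours. Without EGF the order was IGFBP7 (11.19 and 10.92), IGFBP3 (10.29 and 10.46), IGFBP6 (9.47 and 9.06), IGFBP2 (7.95 and 7.53), IGFBP4 (7.88 and 7.61) and IGFBP5 (4.30 and 4.56). On these lengths IGFBP3 stood second in the libraries without EGF and behind IGFBP7, IGFBP6 and IGFBP4 in every other library. On the same lengths IGFBP2 and IGFBP4 did not differ beyond their spread without EGF.

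As a share of the family's summed linear level per kilobase, IGFBP3 made up 26.1% and 32.9% in the libraries without EGF and 3.99% in the +EGF library labelled BRCA2 siRNA. It made up 3.11% and 3.28% in the passage 6 controls and 4.93% in the passage 4 library labelled control. IGFBP7 held the largest share throughout, 48.7% and 45.2% without EGF, against 61.4% and 59.9% in the passage 6 controls. IGFBP4 held 4.89% and 4.56% without EGF, against 10.6% and 11.3% in the passage 6 controls, and IGFBP5 stayed below 1% in all libraries. The summed level was 4810 and 4280 units without EGF, against 2553 and 2691 in the passage 6 controls, a ratio of means of 1.73. Leaving IGFBP3 out of the sum gave a ratio of 1.27, while the +EGF library labelled BRCA2 siRNA was at 1.06 times the passage 4 library labelled control with all 6 members. In a culture sampled in bulk, fewer cells that make a transcript and less of it per cell cannot be told apart.

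**Figure D3:**
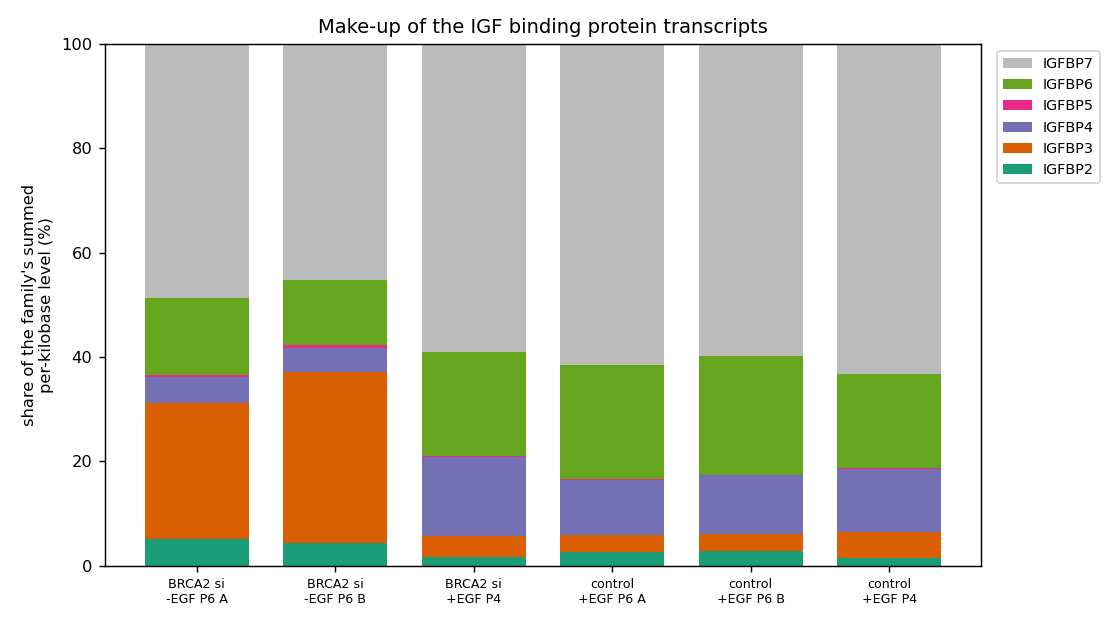
Stacked bars give each member's share, in percent (y axis), of the family's summed linear level per kilobase in each library (x axis). The IGFBP3 segment is 26.1% and 32.9% in the pair without EGF and at most 4.93% in the other 4 libraries.

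Profiles were compared by Euclidean distance over the 6 libraries, on log2 values centred on each gene's own mean but not scaled. Members of small range therefore lie close even where they do not follow the same libraries. IGFBP6 and IGFBP7 had the smallest distance of any pair of members, at 0.42. IGFBP4 and IGFBP6, of small range, were 1.06 apart and IGFBP3 and IGFBP5, of large range, 1.21 apart. The farthest pair was IGFBP3 and IGFBP4 at 5.03. Among all tested genes, the profile of IGFBP3 lay nearest to those of ACKR3, an atypical chemokine receptor (distance 0.45), SERPINB13, a clade B serpin (0.76), and KLK5, a kallikrein protease (1.02). IGFBP5 was nearest to EPHB6, an Eph receptor without kinase activity (0.36), GRIA3, a glutamate receptor subunit (0.46), and SERPINB13 (0.54). IGFBP2 was nearest to TNNI2, a troponin subunit (0.21), CPA4, a carboxypeptidase (0.61), and TIMP3, an inhibitor of metalloproteases (0.68). ACKR3 had values of 7.58 and 7.41 without EGF and 3.70 in the +EGF library labelled BRCA2 siRNA, against 3.82 and 3.86 in the passage 6 controls and 3.73 in the passage 4 library labelled control. TNNI2 shared the 3 levels of IGFBP2, with 9.60 and 9.09 without EGF, 7.86 and 7.95 in passage 6 controls, and 6.79 and 6.69 at passage 4 in the library labelled BRCA2 siRNA and in the control. The 3 members with small ranges lay closer to their 3 nearest genes: TAGLN2, GNB4 and ZNF511 for IGFBP4 (0.10 to 0.13), PDE3B, PINK1-AS and PTOV1-AS2 for IGFBP6 (0.09 to 0.11), and ABCA7, NHLRC3 and CENATAC for IGFBP7 (0.10 to 0.11). Whether reads were counted by strand is not given in the sources used here, so values of the antisense genes PINK1-AS and PTOV1-AS2 may hold reads of their partners. The range over the 6 libraries was 4.15 for IGFBP3, 3.22 for IGFBP5 and 3.09 for IGFBP2, and 0.99 or less for the other 3.

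**Figure D4:**
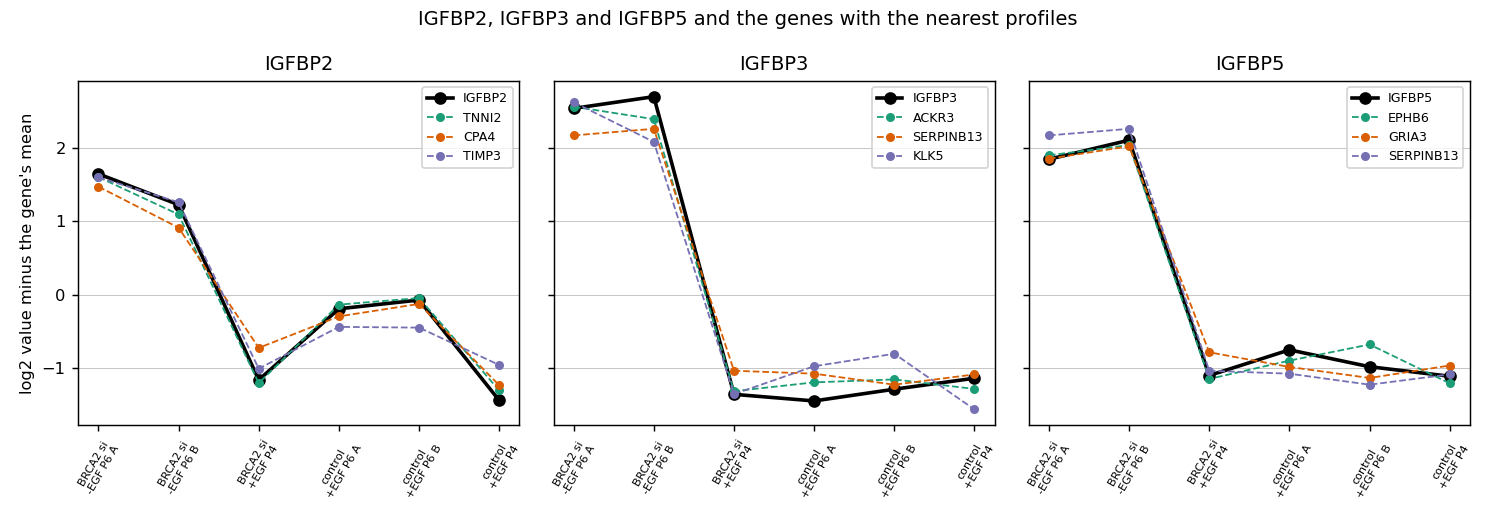
Log2 value less the gene's own mean (y axis) in each library (x axis) for IGFBP2, IGFBP3 and IGFBP5 (black) and the 3 tested genes nearest to each (coloured, dashed). IGFBP3 and IGFBP5 step up only in the pair without EGF among these 6 libraries, and IGFBP2 shows a further step between passage 4 and passage 6.

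Beside the binding proteins, 60 other genes of the IGF system were listed by role, of which 44 were tested. The list was drawn up with results of these libraries known. In the passage 6 comparison 2 rose and 2 fell, with a median difference of 0.05. Over all tested genes 3.56% were called higher, 2.88% lower and the median was -0.02, so the share called is near the background. Of the ligands, only IGF2 passed the filter on low values. It had values of 6.44 and 6.46 without EGF and 7.50 in the +EGF library labelled BRCA2 siRNA, against 6.94 and 6.98 in the passage 6 controls and 7.94 in the passage 4 library labelled control. The difference at passage 6 was -0.51 ± 0.09 (limma adjusted p = 0.0502), and reads may be shared with the overlapping INS-IGF2 transcript, so its values are uncertain. IGF1 lay between -1.51 and -1.42 and INS was listed at 0 in all libraries.

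The receptors and docking proteins did not pass the threshold at passage 6. IGF1R, the signalling receptor of both growth factors, had values of 12.11 and 12.04 without EGF, against 11.70 and 11.72 in the passage 6 controls (difference 0.36 ± 0.07, limma adjusted p = 0.0588). The insulin receptor INSR differed by 0.27 (0.162) and IGF2R, which takes IGF2 into the lysosome, by 0.58 (0.122), while INSRR was too low to test. Among docking and adapter proteins, IRS1 differed by 0.37 (0.198), IRS2 by -0.13 (0.774), SHC1 by 0.10 (0.505), GRB10 by 0.45 (0.438) and GRB14 by 0.12 (0.714), and IRS4 was too low to test. Of the partner proteins, IGFALS lay between -0.63 and -0.55, and the endocytic receptor LRP1 differed by 0.57 (0.0502) and the matrix protein THBS1 by 0.24 (0.109).

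The list of proteases that act on binding proteins and of their inhibitors held 3 of the 4 calls at passage 6. HTRA1, a secreted serine protease that cuts IGFBP5, rose, with values of 14.08 and 13.79 without EGF, against 12.96 and 13.02 in the passage 6 controls (difference 0.95 ± 0.12, limma adjusted p = 0.0238). The lysosomal protease cathepsin D, CTSD, rose by 0.63 ± 0.09 (0.0322). STC1, an inhibitor of PAPPA, fell, with 5.15 and 4.76 without EGF, against 6.80 and 6.62 in the passage 6 controls (difference -1.76 ± 0.17, adjusted p = 0.0163). STC1 stood highest, at 8.13, in the +EGF library labelled BRCA2 siRNA, beside 5.83 in the passage 4 library labelled control (adjusted p = 0.118). PAPPA itself had 4.84 and 5.54 without EGF, against 4.04 and 4.25 in the passage 6 controls, a difference of 1.04 ± 0.26 that missed the threshold (0.0781). Among proteins that share the IGFBP domain, ESM1 fell by 1.67 on the log2 scale, with 3.98 and 4.10 without EGF, against 5.90 and 5.52 in the passage 6 controls (adjusted p = 0.017). None of the 17 tested genes of the PI3K and mTOR arm, which carries the signal of IGF1R onward, was called, and the 2 with the largest differences were PIK3R1 at 0.36 (0.119) and EIF4EBP1 at -0.34 (0.385). The 4 calls became 0 without control A, with the controls averaged or with no filter, and 1, ESM1, without control B, whereas leaving out either library without EGF gave 29.

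Between the control passages, 4 of the 44 genes rose and 11 fell, with a median of -0.35, beside 7.71% called higher, 12.4% called lower and a median of -0.03 over all tested genes. IGF2 fell by 0.98 ± 0.12 on the log2 scale (limma adjusted p = 0.0231) while IGFBP2 rose. The docking protein SHC1 fell by 0.50 (0.0458) and TMEM219, a reported receptor of IGFBP3, by 0.62 (0.0358). Of the proteases, ADAM12 rose by 1.10 (0.0393) and PAPPA2, which cuts IGFBP3 and IGFBP5, fell by 2.02 (0.0461), and the inhibitor STC1 rose by 0.88 (0.0497). Of the domain-sharing proteins, ESM1 rose by 0.93 (0.0435) and CCN1 and CCN2 fell by 1.0 (0.0236) and 0.48 (0.0419). In the PI3K and mTOR arm PIK3R3, a regulatory subunit of PI3-kinase, rose by 0.94 (0.0315) and 5 genes fell. The count of 15 became 0 without control A or without control B. All these directions rest on the passage 4 library labelled control. In the +EGF library labelled BRCA2 siRNA, also at passage 4, ESM1 (6.61) and STC1 (8.13) stood above both passage 6 controls. There CCN1 (13.87) and CCN2 (11.66) stood below both and ADAM12 (9.87) lay between them, so the directions of these genes did not carry over. IGF2, SHC1, TMEM219 and PAPPA2 were above both and PIK3R3 below both, as in the library labelled control.

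**Figure D5:**
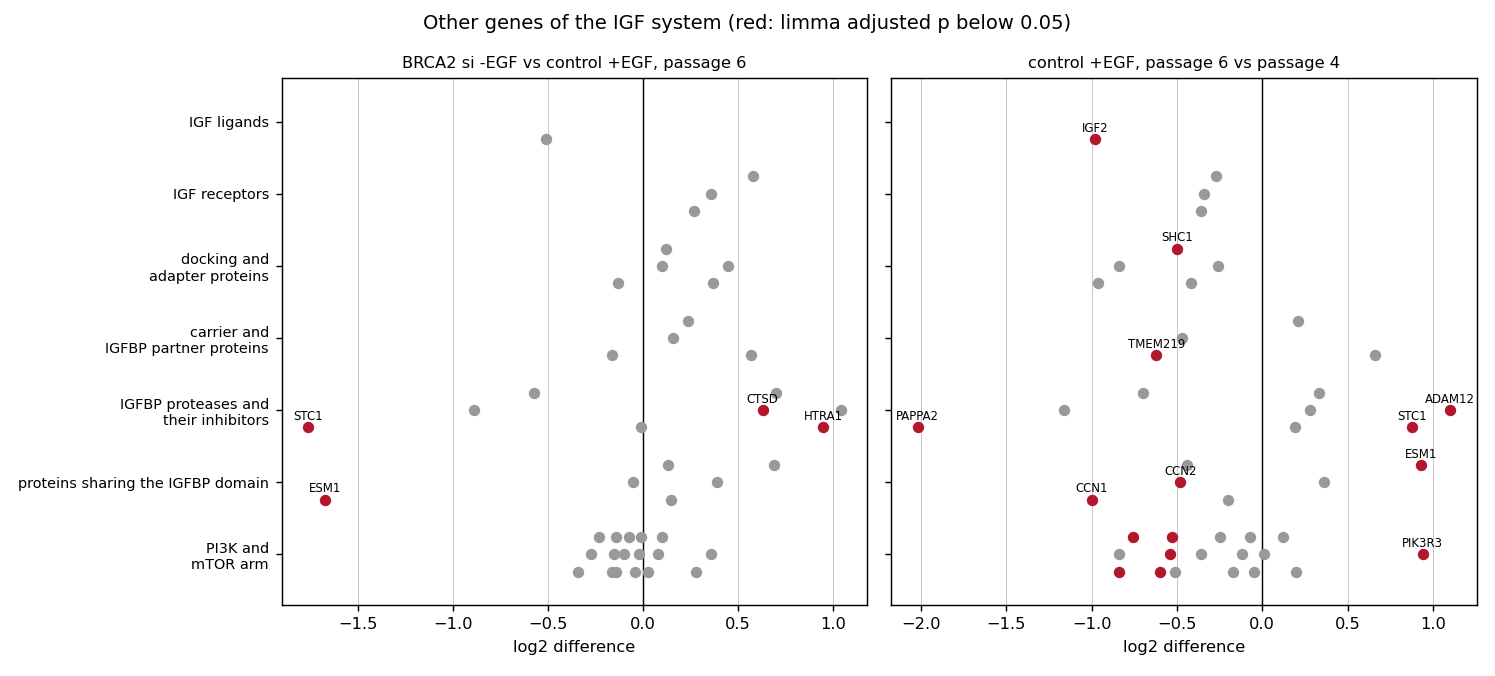
Log2 differences (x axis) of the 44 tested genes of the IGF system by role (y axis; height within a role only separates points), for BRCA2 siRNA without EGF against control with EGF at passage 6 (left) and for control passage 6 against passage 4 (right). Red points have a limma adjusted p below 0.05; 4 are red on the left and 15 on the right, and in the PI3K and mTOR arm only a called gene that rose is named.

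Other genes moved alongside the members at passage 6. Over all tested genes 3.56% were called higher, 2.88% lower, and 47.3% lay above 0. ERK feedback genes, which EGF signalling induces, were lower in 10 of 10 cases, and 8 fell (median -1.04); this count became 0 without control A or without control B. Of the fibroblast markers, 8 of 8 tested were above 0 and 5 rose, with a median of 1.16, among them the collagens COL3A1 (1.75) and COL1A1 (1.69) and the surface protease FAP (1.49). This count became 0 without control A and 3 without control B. Their summed linear level was 6907 and 7088 without EGF and 4373 in the +EGF library labelled BRCA2 siRNA, against 2248 and 2621 in the passage 6 controls and 2446 in the passage 4 library labelled control. Against the +EGF library labelled BRCA2 siRNA, 6 of the 8 tested fibroblast markers were above 0 and 2, DCN and LUM, below. DCN had 9.03 and 9.1 without EGF against 10.11 in that library, and LUM 7.57 and 8.1 against 8.82. The fibroblast markers COL1A2 (2.43 to 2.76) and PDGFRA (2.53 to 3.49) had a mean over the 6 libraries below the filter. Of the epithelial markers, 4 of 8 tested rose, among them CDH1 (2.27) and KRT17 (1.52), and KRT18 fell by 0.85; 2 rose without control A and 1 without control B. Of the endothelial markers, KDR rose (1.23 ± 0.16, adjusted p = 0.0248), with a summed level of 593 and 782 without EGF and 374 in the +EGF library labelled BRCA2 siRNA, against 286 and 314 in the passage 6 controls and 1103 in the passage 4 library labelled control, and CDH5 was listed at 0. The KDR call was lost without control A and without control B. All 6 haematopoietic markers were below the filter. IGFBP3, IGFBP5 and IGFBP7 are also made by fibroblasts and endothelium, and the part of these cells' markers in the members' differences was not tested.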

How the data were processed

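Total RNA from 6 libraries was purified to mRNA and made into libraries with a ScriptSeq kit, per the labels' protocols. The submitters' processing notes name TopHat2 2.0.11, DESeq2 (version not given) and hg19. How reads were counted, on which annotation and strand, and how values were transformed is not given in the sources used here. Values deposited by the authors are on a normalised log2 scale, -1.98 to 19.93, in 1 table of 57820 genes, of which 25986 are at 0 in every library. Depth is unknown, so no counting interval is given. All columns matched a sample by name, and 0 were left over.

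Symbols were matched on Ensembl identifiers (89.9% of genes). A gene was tested if the mean of its linear values (2 to the power of the log2 value) reached 10, with limma 3.58.1 in R 4.3.3 (trend and robust prior, two-sided, 1 mean per combination of siRNA, medium and passage), adjusted over all 14763. The procedure was tested on simulated data. The members and lists were chosen with earlier results of these data known. Named genes are the members, IGFBP1, all ligands, receptors and docking proteins, up to 3 called genes of each other list (the 2 with the largest difference where none was called), BRCA2, EGFR, and the 3 nearest profiles of each member. Of EGFR the values were 15.67 and 16.25 without EGF, against 15.34 and 15.39 in the passage 6 controls (limma adjusted p = 0.124). EGFR stood at 15.15 in the +EGF library labelled BRCA2 siRNA. In the passage 4 library labelled control it was 15.82, between the 2 libraries without EGF. LRP1, THBS1, IGFALS, PAPPA and the named markers were picked after their values were seen. Some genes that this rule would name are not reported here. Promoter windows were taken from RefSeq, GRCh38.p14, and no coordinates were converted. The letters A and B pair only 2 libraries per group and no label says what they share, so pairing is not established. Alternatives changed the filter, scaling, prior, passage pooling and replicates.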

Additional observations from a re-analysis of the deposited data

How the results depend on the processing

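The passage 6 differences of the members kept their direction under all 14 alternatives except that of IGFBP6, which ran from -0.14 to 0.31; IGFBP3 ran from 3.91 to 4.07, IGFBP5 from 2.43 to 2.98, IGFBP2 from 1.36 to 2.01, IGFBP7 from 0.28 to 0.56 and IGFBP4 from -0.56 to -0.29. At passage 4 IGFBP2 ran from -0.59 to 0.42 and IGFBP6 from -0.24 to 0.36, both below 0 only with passages pooled. Pooling the control passages gave 2.01 for IGFBP2 and 0.31 for IGFBP6, and adding 8 to the linear values gave 2.43 for IGFBP5. Counts of calls moved far more, and beyond the smaller number of libraries the cause was not tested. At passage 6, 950 genes became 76 with no filter, 146 with passages pooled, 46 with controls averaged and 42 to 8964 with a library left out, and the 4 IGF system calls became 0, 0, 0 and 0 to 29. At passage 4, 0 calls became 0 to 7651 with a library left out, and 0 to 35 in the IGF system. Between control passages, 2963 became 0 with no filter or controls averaged and 0 to 9849 with a library left out, and the 15 IGF system calls 0, 0 and 0 to 38; pooling passages leaves no value there. Against the +EGF library labelled BRCA2 siRNA, 2406 became 0 with no filter, 30 pooled, 203 averaged and 203 to 9215 with a library left out, and the 10 IGF system calls 0, 0, 3 and 3 to 37. With 1 library of a pair left out, the lone library is assumed to vary like the remaining pair. The 2 library pairs share letters only, and deviations of same-letter libraries correlated at -0.172 over genes. A replicate block gave 8 IGF system calls at passage 6, 67 genes and 3 IGF system calls at passage 4, and 937 genes against the +EGF library labelled BRCA2 siRNA. A crossed replicate block, chosen after seeing the data, gave 1795 genes and 11 IGF system calls at passage 6 and 228 and 5 at passage 4. Unknown depth and 2 residual degrees of freedom limit all calls.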
